A study of Rattus norvegicus with 10 samples.

Results

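Solute carriers are the membrane proteins, gathered in numbered Slc families, that move amino acids, sugars, nucleosides, vitamins and ions across plasma and organelle membranes without splitting ATP. Their transcripts were followed in cultured Sertoli cells from rats aged 20 days that were given follicle-stimulating hormone (FSH). A probe set, the group of oligonucleotides that reports 1 transcript on these Affymetrix rat arrays, was taken as a member when its single annotated gene symbol began with Slc and a digit. The glucose carriers Slc2a1 and Slc2a3 and the monocarboxylate carriers Slc16a1 and Slc16a3 were left out by definition. This gave 174 probe sets of 116 genes, out of 8740 probe sets that are not array controls and 4736 genes with a single symbol. By the substrate each protein is best known for, 35 probe sets (22 genes) fell to amino acids, 55 (33 genes) to ions, 4 (4 genes) to nucleosides and 80 (57 genes) to other substrates.

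The groups were FSH for 2, 4, 8 and 24 h and an untreated control at 0 h, each with 2 arrays (n = 2), numbered replicate 1 and replicate 2. The labels name no genotype or strain and no FSH dose, and no array was of an untreated culture later than 0 h, so time in culture and FSH cannot be told apart in any change given here. They also do not say whether the replicates were separate cultures, and p-values then measure only the spread between these arrays, which may be technical.

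Sertoli cells line the seminiferous tubule, form the blood-testis barrier through the tight junctions between them, and supply the germ cells above that barrier with what cannot reach them from the blood. Carriers in the Sertoli cell membrane are therefore part of the route by which amino acids, nucleosides, metal ions and vitamins enter the tubule. FSH binds its receptor on Sertoli cells and raises cAMP, which acts on transcription through CREB, a factor that binds the palindrome TGACGTCA or its shorter core TGACG.

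Replicate arrays of 1 group correlated at r = 0.867 to 0.905 over the 4439 probe sets bright enough to test. The 2 replicate numbers stood apart from each other. Germ cell markers summed to an intensity of 2013 to 2483 on replicate 2 and of 205 to 858 on replicate 1, over the 10 of 16 listed genes that are on the array. On replicate 1 the sum was 858 at 0 h, then 513, 497, 436 and 205 at 2, 4, 8 and 24 h. On replicate 2 it was lowest at 0 h. Any part of this in the carriers' changes against 0 h was not tested. On replicate 2 most of this sum came from Ldhc, a lactate dehydrogenase of spermatocytes and spermatids, and from the meiotic chaperone Hspa2, whereas the spermatid genes Akap4, Odf1 and Tnp2 were under the floor of 13.5 on every array. Of other genes of late germ cells, Acr lay above that floor on every array (29.6 to 61.0 on replicate 2 and 18.2 to 67.0 on replicate 1) and Tnp1 on some (9.33 to 39.6 on replicate 2 and 9.65 to 20.4 on replicate 1). Sertoli markers summed to 8773 to 12499 on replicate 2, against 11988 to 16631 on replicate 1. Most of this sum came from Clu (at 0 h 7708 on replicate 2 and 13806 on replicate 1). Of the 12 tested probe sets of Sertoli markers, 6 were called lower on replicate 2 and 0 higher. Shbg lay higher on replicate 2 at 2, 4, 8 and 24 h (913 against 745 at 4 h). The ratio of actin signal from the 3' and 5' ends, a measure of RNA length, was 1.48 to 1.76 on replicate 2, against 0.928 to 1.17 on replicate 1. Peritubular myoid markers summed to 1965 on replicate 1 at 24 h and to 169 to 649 on the other 9 arrays. In such bulk RNA, fewer cells of a type and less RNA per cell cannot be told apart. Same-numbered arrays deviated together, though least so between 0 h and the FSH times. Each comparison was therefore also fitted with the replicate number as a block, and that value is given where it changes a call.

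A mean intensity of at least 32.0 over the 10 arrays was required for testing, where each array was first scaled to a 75th percentile of 108. Of the members, 80 probe sets of 61 genes passed: 10 probe sets of amino acid carriers (8 genes), 24 of ion carriers (18 genes), 3 of nucleoside carriers (3 genes) and 43 of other carriers (32 genes). The other 94 probe sets were too dim, and 55 genes had no probe set that passed. Among the untested amino acid carriers were the glial glutamate carriers Slc1a2 and Slc1a3, the taurine carrier Slc6a6 and the cationic carriers Slc7a2 and Slc7a3. The untested ion carriers included the sodium-potassium-chloride carrier Slc12a1 and the zinc exporter Slc30a1, and the concentrative nucleoside carrier Slc28a2 was untested too. Of the tested members, 43 had a mean under the 75th percentile, so many readings lay in the dimmer range of the array. The filter was the median of all scaled values, so tested probe sets of the whole array often lie there too. Their share was not counted. Passing could also rest on the FSH arrays: 4 tested probe sets, of Slc12a2, Slc2a5, Slc32a1 and Slc7a1, had a 0 h mean under the filter.

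Slc25a30 had the highest log2 change of all tested members at 2, 4 and 8 h. It belongs to the Slc25 family of the inner mitochondrial membrane, is related by sequence to the uncoupling proteins, and has been described as a mitochondrial carrier of the kidney. Its probe set (rc_AA892522_at) had an intensity of 292 and 260 at 0 h, 927 and 843 after 2 h of FSH, 1624 and 1829 after 4 h, 1549 and 1498 after 8 h, and 895 and 625 after 24 h, with replicate 1 given first. Every FSH array lay above both 0 h arrays, the 4 h and 8 h arrays were the highest, and the 2 replicates lay furthest apart at 24 h. Slc25a30 rose 6.26-fold at 4 h (log2 change 2.65 ± 0.31 SE, adjusted p = 0.00528, limma with Benjamini-Hochberg adjustment over all tested probe sets) and 5.54-fold at 8 h (2.47 ± 0.31, adjusted p = 0.00935). At 2 h it was 3.21-fold higher at an adjusted p of 0.0545, and it passed the test with the replicate block (adjusted p = 0.0111). At 24 h it was 2.72-fold higher than at 0 h, which did not pass (adjusted p = 0.453, or 0.102 with the block). Within replicate 1 alone the log2 changes were 1.67, 2.48, 2.41 and 1.62 at 2, 4, 8 and 24 h, and within replicate 2 alone they were 1.70, 2.82, 2.53 and 1.27. The call at 4 h was lost without either 4 h array (adjusted p = 0.0556 without replicate 1 and 0.0638 without replicate 2), and the call at 8 h without either 8 h array (0.129 and 0.0655), while the changes themselves stayed between 2.45 and 2.73 in those 4 fits.

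The other tested carriers of the same family had smaller changes. They were 13 probe sets of 10 genes, which carry substrates such as citrate (Slc25a1), dicarboxylates (Slc25a10), phosphate (Slc25a3) and ADP and ATP (Slc25a4, Slc25a5). Their log2 changes ran from -0.46 to 0.44 at 2 h, from -0.38 to 0.50 at 4 h, from -0.96 to 0.87 at 8 h and from -0.44 to 0.84 at 24 h, and 0 of the 13 were called at any time with or without the block. Calls without the block ran at 0% to 0.856% of all tested probe sets over the 4 times, so a count of 0 in 13 does not set these carriers apart from the array. Their smallest adjusted p over the 4 times was 0.650, or 0.144 with the block. Slc25a14, also near the uncoupling proteins in sequence, gave -0.19, -0.24, -0.09 and -0.43 on the log2 scale over the 4 times, with no call.

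**Figure D1:**
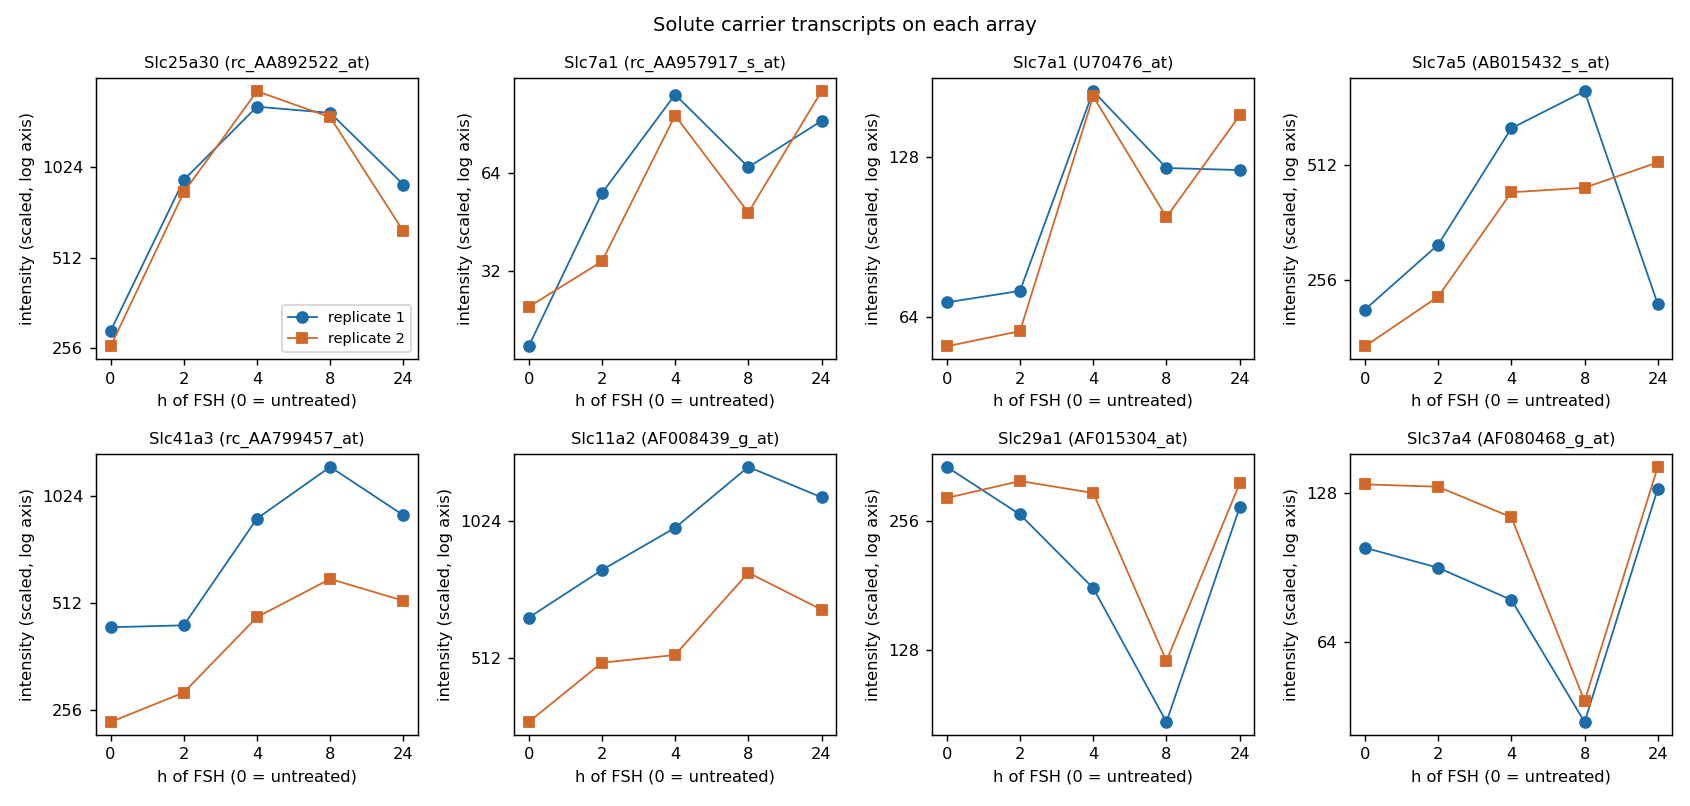
Scaled intensity (log2 axis) on each array against hours of FSH, with separate points for the 2 replicates. Shown are the solute carriers whose change passed limma's test with or without the replicate block, and Slc7a5, which passed at no time. The Slc25a30 points climb at 2 h and peak at 4 and 8 h, those of Slc7a1 are high at 4 h and again at 24 h, and those of Slc29a1 and Slc37a4 dip at 8 h.

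Among the amino acid carriers, Slc7a1 rose at 4 h. Slc7a1 is CAT-1, the plasma membrane carrier of arginine, lysine and ornithine. It has 3 probe sets, of which the third (L10152_s_at) had a mean of 31.7, just under the filter, and was not tested. The first (rc_AA957917_s_at) had an intensity of 18.9 and 24.9 at 0 h, 55.4 and 34.3 after 2 h, 111 and 95.7 after 4 h, 66.6 and 48.3 after 8 h, and 92.2 and 114 after 24 h. All 8 FSH arrays lay above both 0 h arrays. The rise at 4 h was 4.76-fold (log2 change 2.25 ± 0.38, adjusted p = 0.0352, limma), from 0 h values that were under the filter for testing. This call was fragile: of the 10 fits with 1 array removed it held in 2, those without a 2 h array, and the adjusted p reached 0.365 without replicate 1 of the 4 h arrays. The second probe set (U70476_at) had 68.2 and 56.3 at 0 h, 71.7 and 60.2 after 2 h, 170 and 166 after 4 h, 122 and 98.7 after 8 h, and 121 and 153 after 24 h. It overlapped the control at 2 h and lay above it on all later arrays. It was 2.72-fold higher at 4 h (log2 change 1.44 ± 0.31), with an adjusted p of 0.0794, or 0.0271 with the replicate block. At 24 h the 2 tested probe sets were 4.72-fold and 2.20-fold higher than at 0 h (adjusted p = 0.252 and 0.738), so neither was called there.

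The promoter of Slc7a1 is printed because this was the amino acid carrier called with 2 probe sets when the block was used. The 300 bases run from 250 before to 50 after the start of the gene in RefSeq (rat assembly GRCr8, plus strand of chr12:11664238-11664537). Capitals mark the core TGACG, whose first base lies 82 bases before the start.
Slc7a1: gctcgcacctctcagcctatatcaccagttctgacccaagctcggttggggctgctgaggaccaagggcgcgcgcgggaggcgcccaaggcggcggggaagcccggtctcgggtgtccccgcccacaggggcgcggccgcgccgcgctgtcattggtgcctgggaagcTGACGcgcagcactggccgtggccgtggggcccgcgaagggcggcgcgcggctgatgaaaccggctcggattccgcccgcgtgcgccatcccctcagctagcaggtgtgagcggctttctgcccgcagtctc
On either strand, TGACG was found in 7097 of 33469 promoters of this length (21.2%), in 26 of the 98 solute carrier genes that matched the promoter table (26.5%) and in 13 of the 51 of these with a tested probe set (25.5%). The full palindrome TGACGTCA, which contains the core on both strands, was found in 612 promoters (1.83%), in 1 of the 98 and in 0 of the 51. That 1 was the untested Slc18a2. A match is a description of the letters in this window and no measured binding.

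The heterodimer that carries large neutral amino acids such as leucine is built from Slc7a5 (LAT1), the light chain, and Slc3a2 (4F2hc), the heavy chain. Slc7a5 (AB015432_s_at) had an intensity of 214 and 172 at 0 h, 317 and 232 after 2 h, 638 and 434 after 4 h, 797 and 446 after 8 h, and 221 and 520 after 24 h. All FSH arrays lay above both controls, replicate 1 of the 24 h group only just. On the log2 scale it differed from 0 h by 0.50, 1.45, 1.63 and 0.82 over the 4 times, each with an SE of 0.48, and none passed (adjusted p = 0.259 at 8 h, or 0.0985 with the block). The 2 probe sets of Slc3a2 had log2 changes of 0.47 and 0.95 at 2 h, 0.20 and 0.86 at 4 h, 0.91 and 0.97 at 8 h, and 0.66 and 0.84 at 24 h, and neither was called. Both 8 h arrays of each Slc3a2 probe set lay above both controls. A second heavy chain, Slc3a1 (rBAT), which serves the carrier of cystine and dibasic amino acids, had log2 changes of -0.22, -0.56, -1.14 and -0.21 and was not called.

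Slc6a9, the plasma membrane glycine carrier GlyT1, had a different course. Its intensity was 132 and 84.3 at 0 h, 50.05 and 89.2 after 2 h, 198 and 129 after 4 h, 318 and 172 after 8 h, and 63.0 and 83.1 after 24 h. The 8 h arrays were above both controls and the 24 h arrays were below both. The log2 change was 1.15 at 8 h (adjusted p = 0.461) and -0.54 at 24 h, and 24 h lay below 8 h by a log2 change of -1.69 ± 0.46 (adjusted p = 0.300). Slc32a1, the vesicular carrier of GABA and glycine, had log2 changes of 0.21, 1.55, 1.10 and 0.09, with 1 of its 0 h arrays at the floor of 13.5. The glutamate carrier Slc1a1 (log2 changes of -0.73, -0.08, -0.95 and 0.01) and the GABA carrier Slc6a11 (-0.57, -0.62, -0.29 and -0.64) completed the group, with no call.

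Over the 10 tested probe sets of amino acid carriers, the median log2 change was 0.15, 0.73, 0.94 and 0.38 at 2, 4, 8 and 24 h, beside -0.02, -0.03, -0.02 and 0.02 over all tested probe sets. At 8 h, 7 were above both 0 h arrays, which held for 17.7% of all tested probe sets, and 2 were below. An unadjusted p under 0.05 was found for 7 (6 higher and 1 lower), which is 70% beside 9.3% of all, and 0 of them passed adjustment. At 4 h, 5 had such a p, all higher, which is 50% beside 7.75% of all. These are counts of 8 genes, 2 of which gave 2 probe sets each. The medians and counts include Slc32a1 and a Slc7a1 probe set (rc_AA957917_s_at), whose 0 h means of 17.9 and 21.9 lay under the filter. Those 2 passed the filter through their FSH arrays, which favours a rise in these figures.

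**Figure D2:**
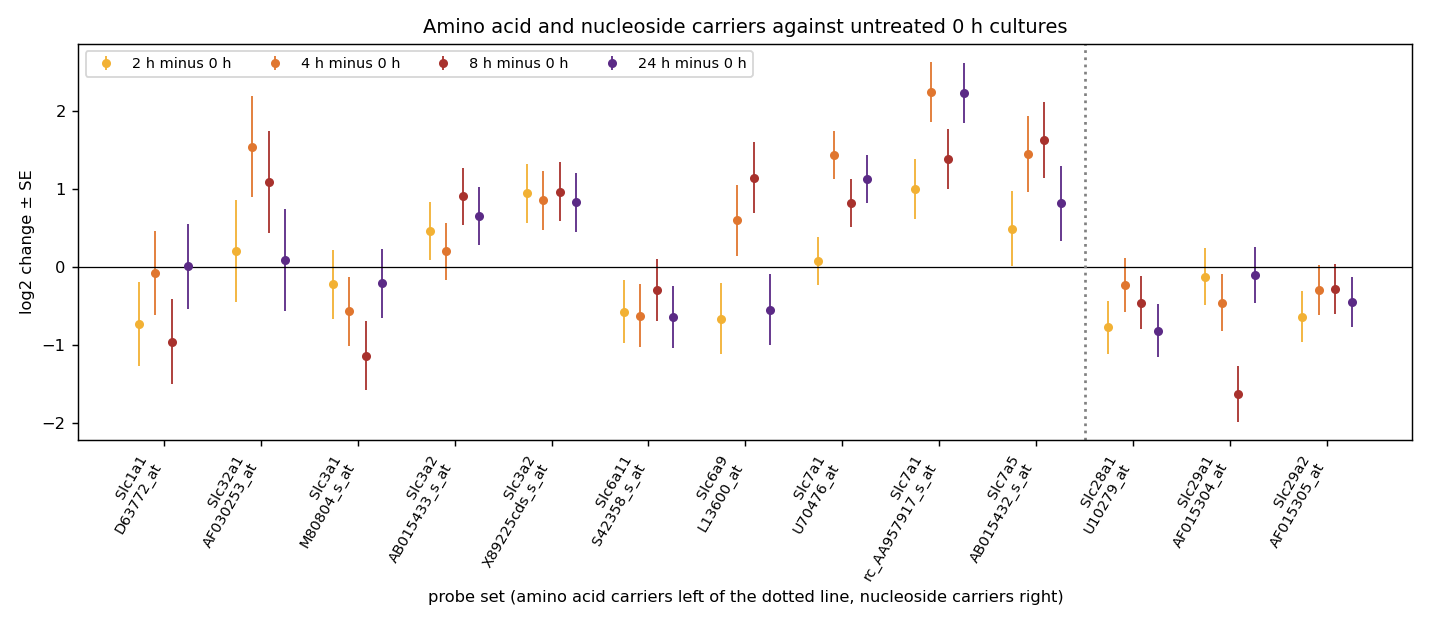
Log2 change against 0 h (points, with bars for the limma SE, n = 2 arrays per group) of the tested amino acid and nucleoside carriers at 2, 4, 8 and 24 h of FSH. Slc7a1 lies highest at 4 h and Slc7a5 at 8 h, and the 3 nucleoside carriers lie below 0 at each time, with Slc29a1 lowest at 8 h.

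No ion carrier passed the test without the block at any time. With the block, Slc41a3 and Slc11a2 rose at 8 h. Slc41a3 is a magnesium carrier of mitochondria. It had an intensity of 438 and 237 at 0 h, 443 and 287 after 2 h, 886 and 468 after 4 h, 1239 and 599 after 8 h, and 905 and 520 after 24 h. Replicate 2 was the lower array at every time, and within each replicate the 8 h array was the highest. The log2 change at 8 h was 1.42 ± 0.53 (adjusted p = 0.419), and with the block the adjusted p was 0.0158. It was 1.34 within replicate 2 alone and slightly larger within replicate 1 alone.

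Slc11a2 (DMT1), which brings ferrous iron and other divalent metals into the cytosol, has 3 tested probe sets. The one called with the block (AF008439_g_at) had 629 and 372 at 0 h, 799 and 501 after 2 h, 988 and 521 after 4 h, 1342 and 788 after 8 h, and 1151 and 654 after 24 h. Its 8 h arrays lay above both controls, and replicate 1 was the brighter array at each time. The 3 probe sets had log2 changes of 1.25, 1.09 and 1.10 at 8 h, and adjusted p-values of 0.0530, 0.0498 and 0.105 with the block, so the call of the second lay at the threshold. Slc40a1 (ferroportin), which exports iron from cells, had log2 changes of -1.26 and -1.11 at 8 h on its 2 probe sets. Both 8 h arrays of each were below both controls, and neither was called (adjusted p = 0.375 and 0.413, or 0.157 and 0.210 with the block).

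Other ion carriers had wide errors. For the sodium-calcium exchanger Slc8a2 the log2 change was -1.08, -0.96, -0.57 and -1.58 over the 4 times, with an SE of 0.64. The renal type phosphate carrier Slc34a1 had -0.90, -0.02, -1.24 and -0.61 on one probe set and -0.81, -0.71, -0.40 and -0.60 on the other. The anion exchanger Slc4a2 differed most between the control arrays, with 558 on replicate 1 and 19.8 on replicate 2 for one probe set and 674 and 116 for the other. Its log2 change at 8 h was -0.70 ± 1.26 and -1.66 ± 0.79 for the 2 probe sets, and neither was called. Over the 24 tested ion carriers the median log2 change at 8 h was 0.01, and it was -0.04 when the arrays were left as deposited, so it has no settled sign.

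The 3 tested nucleoside carriers lay below 0 at each time in their mean change. Slc29a1 (ENT1), the equilibrative carrier of adenosine and other nucleosides, had an intensity of 343 and 291 at 0 h, 266 and 318 after 2 h, 179 and 298 after 4 h, 86.9 and 121 after 8 h, and 276 and 314 after 24 h. The 8 h arrays were the 2 lowest of the 10, and the 24 h arrays overlapped the controls. At 8 h it was 3.08-fold lower (log2 change -1.62 ± 0.36), with an adjusted p of 0.103, or 0.0185 with the replicate block, under which it fell. From the 8 h arrays the 24 h arrays differed by a log2 change of 1.52 ± 0.36 (adjusted p = 0.195, or 0.0418 with the block). Slc29a2 (ENT2) had log2 changes of -0.63, -0.29, -0.28 and -0.44, and the concentrative pyrimidine carrier Slc28a1 (CNT1) had -0.77, -0.23, -0.45 and -0.81, with no call.

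Among carriers of other substrates, Slc37a4 had the same low point as Slc29a1. Slc37a4 moves glucose 6-phosphate into the endoplasmic reticulum, where it is split to glucose. Its probe set AF080468_g_at had 99.1 and 133 at 0 h, 90.3 and 131 after 2 h, 77.8 and 114 after 4 h, 44.1 and 48.6 after 8 h, and 130 and 144 after 24 h. Both 8 h arrays lay below all 8 others. The log2 change at 8 h was -1.31 ± 0.35 (adjusted p = 0.186, or 0.0396 with the block), and 24 h against 8 h gave 1.56 ± 0.35 (adjusted p = 0.151, or 0.0319 with the block). The second probe set of Slc37a4 had a log2 change of -0.80 at 8 h and was not called (adjusted p = 0.490, or 0.239 with the block). Its 24 h arrays against its 8 h arrays gave 0.72 and were not called either (adjusted p = 0.768, or 0.410 with the block).

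The promoters of both are shown because with the block both carriers were lower at 8 h than at 0 h and higher at 24 h than at 8 h. They come from RefSeq (GRCr8), Slc29a1 from the plus strand of chr9:22896849-22897148 and Slc37a4 from the plus strand of chr8:53619775-53620074, each 250 bases before to 50 after the start. Capitals mark the core TGACG, which lies 20 bases before the start in Slc37a4, and the Slc29a1 window holds no such letters on either strand.
Slc29a1: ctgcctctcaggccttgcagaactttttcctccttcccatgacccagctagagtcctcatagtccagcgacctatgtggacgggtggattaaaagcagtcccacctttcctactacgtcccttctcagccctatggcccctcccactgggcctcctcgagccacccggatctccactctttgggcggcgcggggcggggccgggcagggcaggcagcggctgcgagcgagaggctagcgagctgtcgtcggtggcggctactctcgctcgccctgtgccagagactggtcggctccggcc
Slc37a4: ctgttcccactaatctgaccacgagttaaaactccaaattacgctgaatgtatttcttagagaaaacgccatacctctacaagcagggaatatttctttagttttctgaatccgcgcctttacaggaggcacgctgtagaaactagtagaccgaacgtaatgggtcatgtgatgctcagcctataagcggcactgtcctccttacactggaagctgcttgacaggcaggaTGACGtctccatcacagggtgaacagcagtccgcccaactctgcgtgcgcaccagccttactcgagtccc
Of the 5 carriers called with the block that matched the promoter table, Slc7a1 and Slc37a4 hold the core in this window, and Slc29a1, Slc11a2 and Slc41a3 do not.

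Slc2a5, the fructose carrier GLUT5, was dim, with values on opposite sides of the control at 4 h and at 24 h. One probe set (D13871_s_at) had 103 and 54.5 at 0 h, 42.8 and 80.0 after 2 h, 13.1 and 39.1 after 4 h, 60.5 and 99.4 after 8 h, and 111 and 122 after 24 h. Both 4 h arrays lay below the controls, one of them under the floor, and both 24 h arrays above them. Its log2 change was -1.71 ± 0.58 at 4 h (adjusted p = 0.355) and 0.64 ± 0.58 at 24 h. The second probe set had both 4 h arrays at the floor and was there at least 2.20-fold lower than at 0 h (adjusted p = 0.832), and at 24 h it had a log2 change of 1.41 ± 0.62. That probe set had a 0 h mean of 30.0, under the filter. It passed through its 24 h arrays (mean 79.4), which favours a rise there. The fructose carrier was called at no time.

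The vitamin carrier Slc5a6, which takes up biotin and pantothenate, had log2 changes of -0.83, -0.88, -0.53 and -0.09 on one probe set and 0.14, 0.14, 0.55 and 0.56 on the other, so the 2 disagree. Of carriers best known from neurons, the dopamine carrier Slc6a3 had log2 changes of -0.76, -0.78, -0.51 and -0.89 on a dim probe set. The serotonin carrier Slc6a4 had -0.07, -0.34, -0.36 and -0.97 on its brighter probe set and 0.25, -0.30, -0.38 and -1.04 on its dimmer one. The vesicular acetylcholine carrier Slc18a3 had -0.61, -0.18, -0.82 and -1.07 on one probe set and -0.51, -0.85, -0.32 and -0.50 on the other. None of these was called.

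**Figure D3:**
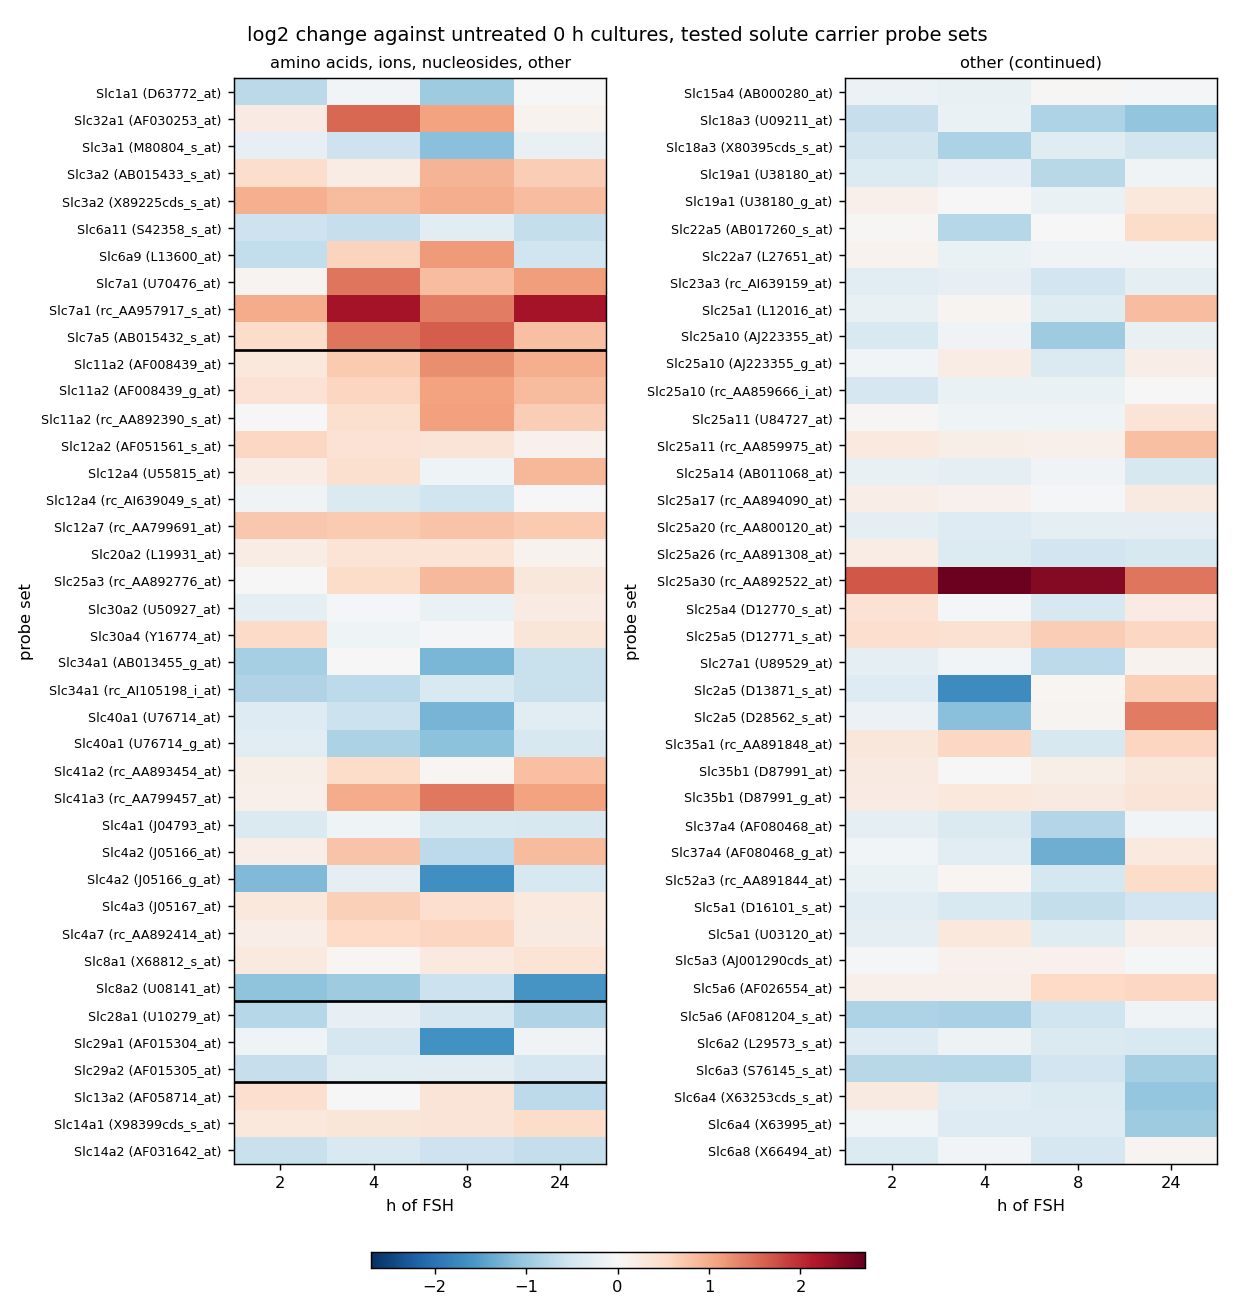
Log2 change against 0 h, by colour, of the 80 tested solute carrier probe sets (rows, grouped by substrate) at 2, 4, 8 and 24 h of FSH (columns). A change passed limma's test with or without the replicate block for 6 genes, and the amino acid rows hold the largest share of positive colours at 4 and 8 h.

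Calls among solute carriers are set here beside those on the whole array. At 2 h, 0 of the 80 tested members were called where 0.676% of all tested probe sets were, and 4 members had an unadjusted p under 0.05 (5% beside 4.57% of all). With the block 1 member (Slc25a30) rose at 2 h, beside 1.15% of all. At 4 h, 2 members were called, Slc25a30 and Slc7a1, beside 0.856% of all, and 7 had an unadjusted p under 0.05 (8.75% beside 7.75%). With the block 3 probe sets of the same 2 genes rose, beside 2.64% of all. At 8 h, 1 member was called, Slc25a30, beside 0.766%. With the block 3 rose (Slc25a30, Slc41a3 and Slc11a2), beside 2.3%, and 2 fell (Slc29a1 and Slc37a4), beside 0.383%. At 24 h, 0 members were called without the block, where 0% of all were, and 0 with it, beside 0.0901%. At that time 10 members had an unadjusted p under 0.05, which is 12.5% of them beside 4.6% of all tested probe sets. At 8 h 16 had one (20% beside 9.3%). Both counts include Slc7a1 (rc_AA957917_s_at, 0 h mean 21.9), and the one at 24 h includes Slc2a5 (D28562_s_at, 0 h mean 30.0). These 2 probe sets lay under the filter at 0 h and passed it through FSH arrays, which favours a rise. The 4 probe sets with such 0 h means are among the members in all counts here and below.

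Groups that do not overlap, with both FSH arrays on the same side of both 0 h arrays, were common on the whole array. At 2 h this held for 24 of 80 members (10 higher and 14 lower), beside 24.1% of all tested probe sets. At 4 h it held for 26 (12 higher and 14 lower), beside 28%. At 8 h it held for 43 (19 higher and 24 lower), beside 34.9%, and at 24 h for 32 (18 higher and 14 lower), beside 29%. The median log2 change over the members was -0.07, -0.05, -0.18 and 0.11 at the 4 times. The carriers of other substrates had a median of -0.32 at 8 h, with 30 of 43 below 0.

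The 24 h arrays were also set against earlier FSH times. The log2 changes here use no control array, whereas limma's SEs and p-values draw on the spread over all 10 arrays. Against 8 h, 0 members were called without the block, beside 0.225% of all, and with it 2 members, Slc29a1 and Slc37a4, were higher at 24 h, beside 0.225%. Both 24 h arrays lay above both 8 h arrays for 26 members, beside 18.1% of all, and below them for 9, beside 17.5%. Slc25a30 lay 2.04-fold lower at 24 h than at 8 h (log2 change -1.03 ± 0.31), which was not called (adjusted p = 0.418, or 0.121 with the block). Against 2 h, 0 members were called without the block and 0 with it, beside 0.315% and 0.811% of all. The smallest adjusted p of a member there was 0.504, for Slc7a1. A change at any of the 4 times, by limma's F test, was called for Slc25a30 (adjusted p = 0.0148), which is 1 of 80 members beside 0.991% of all. With the block 4 members were called by this test, Slc25a30, Slc29a1, Slc41a3 and Slc7a1, beside 3.22%.

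Solute carriers also differed by replicate number. Over the 5 times, 13 of the 80 tested members were lower on the replicate 2 arrays than on replicate 1, beside 8.65% of all tested probe sets, and 0 were higher, beside 6.53%. The count moved with the arrays used: it was 20 without either 0 h array, 10 without either 2 h array, 4 without either 4 h array, 5 without either 8 h array and 4 without either 24 h array. Slc12a7, a potassium-chloride cotransporter, averaged 144 on replicate 2 (93.1 to 177) and 291 on replicate 1 (192 to 357), a log2 difference of -1.02 ± 0.17 (adjusted p = 0.00522, limma). Its 2 ranges did not overlap. Slc41a3 (-0.86), the mitochondrial 2-oxoglutarate carrier Slc25a11 (-0.82), the riboflavin carrier Slc52a3 (-0.81) and Slc4a2 (-1.25 on its called probe set) were the others among the 5 largest. The remaining 8 were probe sets of Slc25a3, Slc25a10, Slc11a2 (2 probe sets), Slc25a1, Slc25a5, the creatine carrier Slc6a8 and the phosphate carrier Slc20a2. Other tested probe sets of Slc25a11 (-0.31), Slc25a10 (-0.53 and -0.23), Slc11a2 (-0.47) and Slc4a2 (-1.64) were not called. Each of the 13 was lower on replicate 2 at all 5 times, and 7 of them were ion carriers. Of the 4 tested germ cell markers 2 were higher on replicate 2, with a median log2 difference of 2.06, and 6 of the 12 tested probe sets of Sertoli markers were lower. The part of these cell markers and of the 3'/5' ratio in the carriers' difference was not tested.

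**Figure D4:**
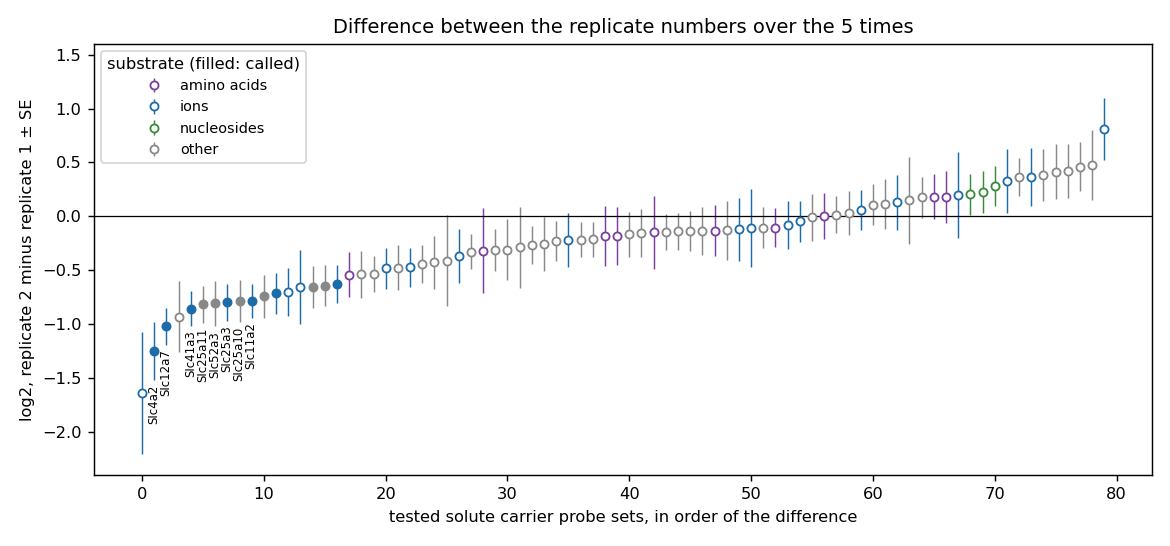
Log2 difference, replicate 2 minus replicate 1 over the 5 times (points, with bars for the limma SE), of the tested solute carrier probe sets, filled where the difference passed the test. All 13 filled points lie below 0, and the number called ran from 4 to 20 when 1 array was left out.

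Pumps and channels that move the same ions and nutrients by other means were counted in the same way. The tested probe sets were 9 of the sodium-potassium pump, 6 of calcium pumps, 12 of the vacuolar proton pump, 9 of ABC transporters, 2 of the organic anion carriers Slco and 4 of aquaporins. Without the block 0 of them were called at any of the 4 times. With it Atp2a2, the calcium pump of the endoplasmic reticulum, rose at 4 h, with a log2 change of 1.53 ± 0.35 (adjusted p = 0.106, or 0.0322 with the block). These counts stand beside at most 0.856% of all tested probe sets called without the block and 2.64% called higher with it at 4 h, and are near that background.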

How the data were processed

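RNA of cultured rat Sertoli cells was measured on 10 Affymetrix arrays. Each deposited table gives 1 linear intensity per probe set. Scanner software and settings are not given in the sources used here. Trimmed array means (2% left off at each end) of 125.2 to 125.27 lay close together before any step taken here. An unnumbered 2 h array was read as replicate 1, since its partner is replicate 2, and the control array whose title names no time as 0 h from its description.

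Each array was divided by a factor (0.909 to 1.13) to reach a shared 75th percentile of 108. Values under 13.5, that percentile divided by 8, were set to this floor and log2 was taken. After removal of 59 control probe sets, the 4439 with a mean of at least 32.0 were kept. Groups were compared with limma 3.58.1 in R 4.3.3 (lmFit, eBayes with an intensity trend, 5 residual degrees of freedom, 4 with the replicate block). Benjamini-Hochberg adjustment was made over all tested probe sets within each comparison, with calls at an adjusted p under 0.05. Errors are limma SEs. The fit without the block was also run on simulated arrays with known changes. These were drawn from the means and spread of the real arrays, with independent noise on each array. For pairing, each array's deviations from its group mean were correlated with those of the same-numbered array at another time. Over the 10 pairs of times r was 0.110 to 0.698, so the numbers were taken to pair the samples. Pairs with 0 h had the lowest r (0.110 to 0.417), and pairs among the FSH times had 0.476 to 0.698. The block thus rests on a weaker pairing in comparisons with 0 h. No 2 arrays were identical.

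Symbols came from the platform annotation, in which 7006 probe sets have 1 symbol, 308 have several and 1426 have none. All 174 members matched the RefSeq gene table (assembly GRCr8) and 98 of the 116 genes matched its promoter table. The array names no genome build, so coordinates are those of GRCr8. The members, substrate groups and other lists were chosen with earlier results of these data known. Genes were named where called in any comparison with or without the block. The 5 largest changes in each direction per time among probe sets whose groups do not overlap, and the 5 largest called differences between replicate numbers, were added. The other tested amino acid and nucleoside carriers, Slc25a14 and examples of untested genes were added after the values were seen. Alternatives were the values as deposited, quantile normalization, a higher and a lower floor, other filters, no intensity trend, the block and each array left out.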

Additional observations from a re-analysis of the deposited data

Results flagged for a closer look

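Both Slc29a1, the equilibrative nucleoside carrier, and Slc37a4, the glucose 6-phosphate carrier of the endoplasmic reticulum, were low at 8 h and not at 24 h, and for 1 probe set of each the difference between these times passed limma's test with the replicate block. For Slc29a1 it was a log2 difference (24 h minus 8 h) of 1.52, and for Slc37a4 it was 1.56. Neither passed without the block (adjusted p = 0.195 and 0.151), and the second probe set of Slc37a4, at 0.72, did not pass with it (adjusted p = 0.410). The fructose carrier Slc2a5 lay above both controls on all 24 h arrays and below both on all 4 h arrays for each of its 2 probe sets, with log2 changes of 0.64 and 1.41 at 24 h and of -1.71 and -1.14 at 4 h. That difference between the 2 times was not tested. Both 4 h readings of its second probe set lay under the floor. That probe set passed the filter through its 24 h arrays, so its rise at 24 h is no independent support for that of the first.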

How the results depend on the processing

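Over 43 log2 changes of named solute carriers, 754 values under other settings or with 1 array left out gave 0 changes of direction, and 727 stayed on the same side of the threshold. The arrays of the groups compared do not overlap for these changes, so leaving out 1 array could not reverse a direction. At 2 h, 1 member (Slc25a30) was called with the arrays as deposited, with quantile normalization, with the higher floor and with no filter. It was also called with a filter at 2 times the median of all scaled values and with the replicate block. The other settings called 0 at 2 h. At 4 h the higher floor and no filter left 1, and leaving out single arrays gave 0 to 2. At 8 h the replicate block gave 5, and leaving out arrays 0 to 1. Between 24 h and 8 h the block gave 2. The F test called 2 with quantile normalization and 4 with the block, and 0 to 1 with an array left out. The 13 calls between replicate numbers became 8 as deposited and 7 with no filter, and 4 to 20 with an array left out. At 4 h the block gave 3, against 2 without it, and it changed no other count. The cause of these moves was not tested. With 2 arrays per group precision is limited by their number. Of the 80 members 43 lie in the dim range, where tested probe sets of the whole array often lie too.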
